A study of Mus musculus with 18 samples.

Results

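The genes described here are 35 mouse genes of the unfolded protein response and of protein folding in the endoplasmic reticulum (ER), measured by RNA-seq in sorted pancreatic islet cells with and without interferon gamma (IFNγ). They were chosen by symbol, as rows of the deposited gene tables, out of 55487 gene IDs. All 35 were found and all passed the filter on low counts. By role, 15 encode chaperones and folding enzymes, 7 act in ER-associated degradation, 4 are the stress sensors and Xbp1, and 9 belong to the integrated stress response. Islets of adult male C57BL/6 mice were kept for 20 h with IFNγ at 5 ng/mL or left untreated, then dispersed into single cells for flow cytometric sorting. The 6 groups were IFNγ-treated and control delta cells (sorted as CD24-high), IFNγ-treated and control alpha cells (CD24-low, CD71-negative), and IFNγ-treated and control beta cells (CD24-low, CD71-positive). Every group held 3 libraries, 18 in all, and the study counts each n as an independent biological sample. It does not say that libraries of different groups are independent of each other. By the dates in the library names, some libraries of different cell types and treatments shared a date, and the main fit has no term for it. The cells met IFNγ inside whole islets and were separated only afterwards. The sources used here do not say how many mice were pooled for a library.

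Secretory cells fold their cargo in the ER with the help of chaperones such as BiP, the product of Hspa5, and of protein disulfide isomerases. When unfolded protein accumulates, the membrane sensors IRE1 (gene Ern1), PERK (gene Eif2ak3) and ATF6 are activated. IRE1 splices Xbp1 mRNA into the form that encodes an active factor, ATF6 is cut to release another, and PERK slows translation while favouring that of Atf4. XBP1 and ATF6 raise chaperone and degradation genes, and ATF4 raises genes of amino acid supply and the factor CHOP, the product of Ddit3. Beta cells carry a heavy folding load because they make proinsulin, and the response is well known there. Gene-level counts report the amount of Xbp1 mRNA but not its splicing, and none of the values below reports translation or protein.

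The promoters are shown because some of them hold elements that factors of this response are known to bind. Other windows, such as those of Xbp1 and Ddit3, held none of the elements searched for. RefSeq promoter windows (GRCm38.p6, 250 bases before to 50 after the start) were matched for 30 of the 35 genes, and Manf, Hyou1, Derl1, Atf6 and Ppp1r15b had no entry. The ER stress response element (ERSE), which reads CCAAT, then 9 bases of any kind, then CCACG, is bound by ATF6 together with the CCAAT-binding factor NF-Y. It was found on either strand in 9 of the 30 genes, against 0.137% of the 27025 genes with a window. The 35 genes were chosen as members of this response, so that difference is no independent result. Of these 9, 7 were chaperones and folding enzymes (Hspa5, Hsp90b1, Pdia6, Calr, Canx, Dnajc3 and Creld2, out of 13 matched) and 2 were degradation genes (Syvn1 and Derl3, out of 6). No window of the 3 matched sensor genes or the 8 matched integrated stress response genes held it. The sites below are printed along the gene's strand with the element in capitals and 5 flanking bases on each side in lower case. In Calr and in the second Hsp90b1 site the element runs the other way, so that it starts with CGTGG.
Hspa5, chr2:34772020-34772048, plus strand: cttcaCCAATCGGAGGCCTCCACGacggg
Hsp90b1, chr10:86705633-86705661, minus strand: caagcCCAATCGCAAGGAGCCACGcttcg
Hsp90b1, chr10:86705528-86705556, minus strand: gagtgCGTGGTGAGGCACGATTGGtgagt
Calr, chr8:84847070-84847098, minus strand: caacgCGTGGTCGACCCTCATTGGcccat
Dnajc3, chr14:118937822-118937850, plus strand: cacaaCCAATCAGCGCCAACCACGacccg

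The related ERSE-II (ATTGG, any base, CCACG) was in the windows of Herpud1 and Dnajb11 and in 0.0444% of genes. The composite element bound by ATF4 with a partner such as CHOP (TGATG, any base, AA) was in 5 of the 30 genes, Herpud1, Atf3, Trib3, Chac1 and Asns, and in 4.51% of genes. Apart from Herpud1 these belong to the integrated stress response. The short UPRE core TGACGTG was in Hspa5 alone (2.22% of genes), and the cyclic AMP element TGACGTCA was in Ppp1r15a alone (2.03% of genes). CCACG, the end that ERSE and ERSE-II share, was in 24 of the 30 genes and in 35.5% of all genes. Herpud1 is shown with both of its elements because it held a site of each kind. The Chac1 and Atf3 sites run the other way, as does the second Herpud1 site. A match is a stretch of letters and not a measured binding site.
Herpud1, ERSE-II, chr8:94386372-94386392, plus strand: cgctgATTGGGCCACGttgga
Herpud1, ATF4-CHOP element, chr8:94386312-94386329, plus strand: gcgggTTGCATCAgcccg
Chac1, ATF4-CHOP element, chr2:119351044-119351061, plus strand: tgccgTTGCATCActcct
Asns, ATF4-CHOP element, chr6:7693220-7693237, minus strand: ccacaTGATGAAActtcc
Atf3, ATF4-CHOP element, chr1:191183431-191183448, minus strand: cgcacTTGCATCAccaag

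The libraries held 6128845 to 11531734 expected counts. Levels are given as CPM, counts per 1000000 scaled by the trimmed mean of M-values (TMM). The summed level of 3 interferon response control genes was higher in every treated library, at 1041 to 1565 CPM in IFNγ-treated and 103 to 107 in control delta cells, 778 to 935 and 105 to 112 in alpha cells, and 1205 to 1512 and 120 to 136 in beta cells. Summed markers followed the labels: 6 delta markers reached 11228 to 37724 CPM in delta libraries and at most 163 in the others, 8 alpha markers reached 78501 CPM or more in alpha libraries and at most 3529 in the others, and 10 beta markers reached 44761 CPM or more in beta libraries and at most 12175 in the others, that highest value being in alpha control 2. The 29 acinar markers, which stand for the exocrine cells around the islets, summed to 603 to 3132 CPM in delta libraries (26 to 29 of the 29 above 0), 6.64 to 59.0 in alpha libraries and 3.04 to 2506 in beta libraries. Of that list Prss1 was at 0 in all libraries but delta control 3. The highest acinar sums were in delta control 3 (3132 CPM) and beta control 1 (2506 CPM). Beta control 3 stood apart from the other beta libraries: its deposited table is named after papain while the remaining beta tables are named after CD71, its immediate early and dissociation genes summed to 2502 CPM against 1158 and 1468 in the other control beta libraries, its mitochondrial share was the highest of the 18 at 9.46%, and its rRNA share was 7.74% against 18.6% to 36.7% in the other beta libraries. The rRNA share was 5.60% to 11.6% in delta and 5.00% to 28.4% in alpha libraries. The 3 polypeptide and ghrelin cell markers summed to 2227 to 8235 CPM in delta, 1968 to 4532 in alpha and 104 to 733 in beta libraries, and the 8 duct markers to 257 to 419, 776 to 1423 and 430 to 628 CPM in the same order. The part of these cells in the differences below was not tested. In bulk RNA, less RNA per cell and fewer cells that express a gene cannot be told apart.

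Per unit of transcript length, in transcripts per 1000000 (TPM), chaperones were the most abundant of the 35 genes in control cells. In control beta cells Hspa5 averaged 296 TPM, Hsp90b1 271 and Calr 233, and 10 chaperones and folding enzymes took the first 10 places. Atf4 (95.7 TPM) and Xbp1 (87.4 TPM) followed. Derl3 (2.30 TPM) and Atf3 (0.520 TPM) were the lowest. In control delta cells Hsp90b1 came first at 369 TPM, ahead of Hspa5 at 249 TPM, and in control alpha cells the same pair led with 227 and 198 TPM. Summed over the 15 chaperones, control libraries held 1206, 1551 and 2183 TPM in delta cells, 1293, 1548 and 1089 in alpha cells, and 1302, 2068 and 2392 in beta cells. These TPM sums overlapped between all 3 cell types. The sums of the 9 integrated stress response genes set beta cells apart: 151, 167 and 134 TPM in delta cells and 103, 175 and 124 in alpha cells lay below 229, 271 and 226 TPM in beta cells. Atf4, Asns and Ddit3 had the highest means of the 9 in control beta cells (95.7, 60.8 and 28.4 TPM). Not all 9 followed the sum, since Sesn2, Ppp1r15a and Atf3 averaged higher in control alpha than in control beta cells.

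**Figure D1:**
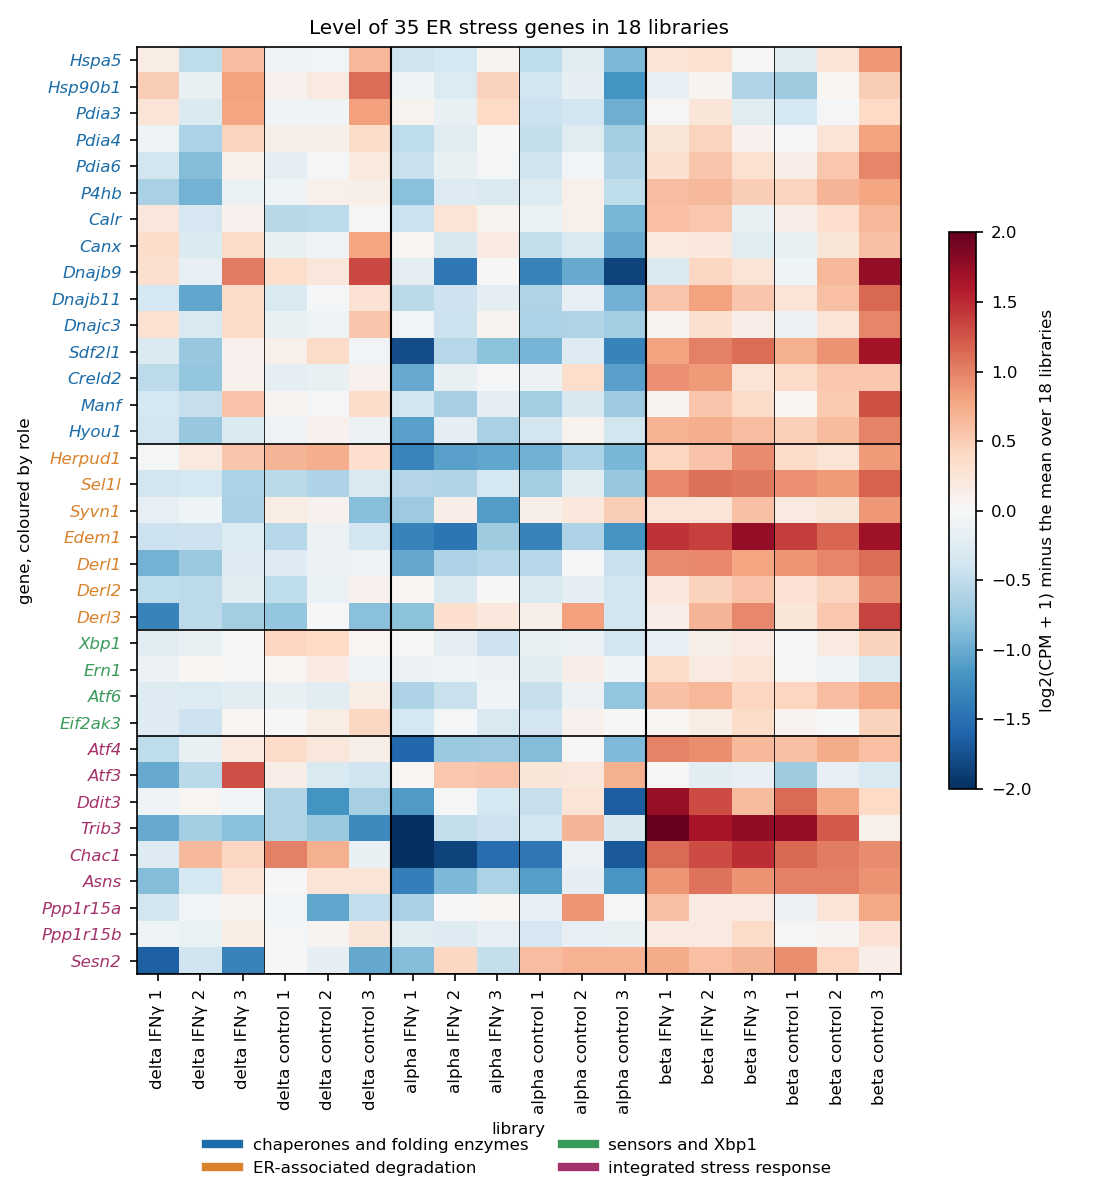
Each row is a gene, coloured by role, and each column a library; colour gives log2(CPM + 1) minus the gene's mean over the 18 libraries. The beta libraries, treated or not, are red for most rows, Edem1, Sel1l and Trib3 among them.

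In resting cells many of these genes differed between the cell types. In control alpha cells 21 of the 35 genes were lower than in control beta cells and 0 were higher (edgeR quasi-likelihood test, Benjamini-Hochberg adjusted p under 0.05 over 17338 genes), where 10.1% of all genes tested were lower and 9.56% higher. The median log2 fold change was -0.90 over the 35 genes and 0.04 over all genes. In control delta cells 10 of the 35 were lower than in control beta cells and 0 higher (9.11% and 11.4% of all genes), with a median of -0.60 against 0.05 over all genes. With offsets for GC content that comparison called 1866 genes higher and 2798 lower of all, against 1980 and 1580 as reported. None of the 10 calls was lost with these offsets. The full count of the 35 genes in that fit is not given here, so 10 of 35 is set only against the share as reported. Against control alpha cells, 9 were higher in control delta cells and 1, Sesn2, was lower (10.9% and 8.77% of all genes), with a median of 0.33 against 0.03. None of the 35 genes was higher in alpha or delta than in beta controls by DESeq2 or limma-voom either. At an unadjusted p under 0.05, 26 genes differed between alpha and beta, 17 between delta and beta and 17 between delta and alpha controls. Of all 17338 genes tested, 5468, 5555 and 5791 did so in the same order. The 3 comparisons share their control libraries, so they are not independent of one another.

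In alpha against beta cells, 11 of 15 chaperones, 5 of 7 degradation genes, 1 of 4 sensors and 4 of 9 integrated stress response genes were lower. Their medians were -0.90, -1.34, -0.35 and -1.16. Between delta and beta cells the degradation genes led (4 of 7 lower, median -1.16), followed by the integrated stress response (3 of 9, median -0.80), with 2 of 15 chaperones (median -0.56) and 1 of 4 sensors (median 0.05). Between delta and alpha cells, 4 of 15 chaperones, 2 of 7 degradation genes and 3 of 9 integrated stress response genes were higher in delta cells, although the median of the 9 was -0.40. On the dates that 2 control types shared, 33 of the 35 genes were lower in alpha control 1 than in beta control 1 (median log2 difference -0.53) and 29 in alpha control 2 than in beta control 2 (median -0.55). In delta control 3, 25 were lower than in beta control 2 (median -0.37) and 14 lower than in alpha control 2 (median 0.20). These pairs are part of the libraries that gave the calls and are no independent check of them. No share or median over all genes was taken for these pairs, so a shift common to all genes cannot be told apart. With the date as a term in the fit, 20 genes were lower in alpha than in beta cells, and the calls of Hspa5 and Canx were lost. The date term also ended the calls of Atf6, Derl2, Hyou1 and Sdf2l1 between delta and beta cells. With that term 2 genes were higher in delta than in beta cells. Between delta and alpha cells the calls of Asns, Atf4, Chac1 and Edem1 were lost. Without beta control 3, the papain library, 16 were lower in alpha and 5 in delta than in beta cells. Without beta control 1 and delta control 3, which had the highest acinar sums, the counts were 20 and 9. Of the calls as reported, that refit lost Ddit3 between alpha and beta cells. Between delta and beta cells it lost Asns, Hyou1, Sdf2l1 and Trib3. Delta controls 1 and 2, which stayed in, also held acinar markers (1411 and 1516 CPM). Without delta control 1, 6 were lower in delta than in beta cells. The count of 9 higher in delta than in alpha cells was 2 without alpha control 1 or without alpha control 3, and 4 without delta control 3. For the counts of these refits no share over all genes is given here, so they show only how the calls moved. GC offsets ended 4 of these 9 calls, those of Hsp90b1, Canx, Dnajc3 and Edem1, and the 35 estimates of delta against alpha cells correlated with GC content at r = -0.471. The GC tilt of a library, the median centred log2 level of the 4330 GC-poorest genes minus that of the GC-richest ones, was -0.102, -0.0582 and 0.858 in delta controls, against -0.475, -0.712 and -0.755 in alpha controls. 

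**Figure D2:**
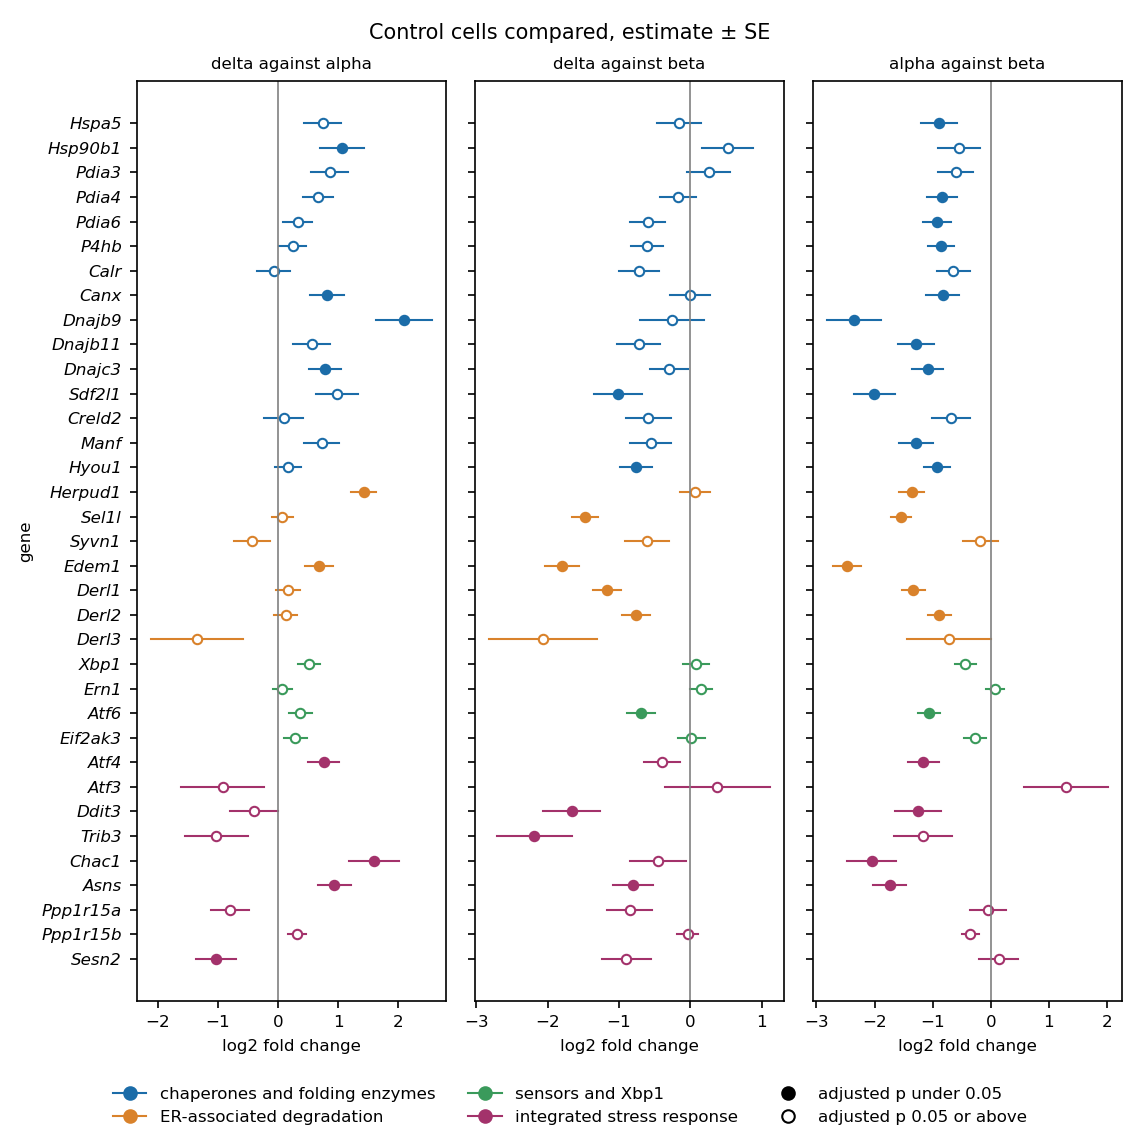
Log2 fold change (x axis) of each gene (y axis) between control cell types; bars are ± SE of the edgeR fit, n = 3 libraries a group, filled points have an adjusted p under 0.05. In the panel of alpha against beta nearly all points lie left of 0, led by Edem1 at -2.47 and Dnajb9 at -2.35.

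Hspa5 encodes BiP, the main Hsp70 of the ER and the protein that holds the sensors inactive. In IFNγ-treated cells it read 1156, 737 and 1604 CPM in delta cells, 796, 816 and 1079 in alpha cells and 1269, 1294 and 1049 in beta cells. In control cells it read 997, 1007 and 1651 CPM in delta cells, 737, 887 and 561 in alpha cells and 904, 1264 and 1900.3 in beta cells. The treated and control libraries overlapped in each cell type, while the 3 control alpha libraries were below all 3 control beta libraries. Hspa5 was lower in control alpha than in control beta cells (log2 fold change -0.90 ± 0.31, adjusted p = 0.0481), a call just inside the threshold. The estimate was -0.58 with adjusted p = 0.268 without beta control 3, whose level of 1900 CPM was the highest of all, and 11 of the 18 fits that leave out 1 library lost the call. It was also lost with the date as a term (adjusted p = 0.118). Between delta and beta controls the estimate was -0.15 ± 0.31 (adjusted p = 0.773).

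Dnajb9 encodes ERdj4, a co-chaperone of BiP that represses IRE1 and is a classical XBP1 target. It read 279, 199.5 and 462 CPM in delta cells, 196, 82.3 and 226 in alpha cells and 184, 298 and 267 in beta cells with IFNγ. Without IFNγ it read 286, 263 and 561 CPM in delta cells, 88.2, 111 and 61.6 in alpha cells and 210.4, 355 and 764 in beta cells. Every control alpha library was below every other control library. Control alpha cells were lower than control beta cells by the largest amount of any chaperone (log2 -2.35 ± 0.47, adjusted p = 0.00134), and control delta cells were higher than control alpha cells (2.09 ± 0.46, adjusted p = 0.0033). Both calls held in all 18 fits that leave out 1 library, and without beta control 3 the first was -1.71 (adjusted p = 0.0119). Between delta and beta controls the estimate was -0.26 ± 0.44, adjusted p = 0.737, with a 95% interval of -1.19 to 0.67.

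Sdf2l1, an ER protein that works with BiP and its co-chaperones, was lower in both other cell types than in beta cells. Its levels were 17.4, 12.4 and 23.03 CPM in delta cells, 5.61, 14.1 and 11.8 in alpha cells and 38.5, 44.2 and 47.7 in beta cells with IFNγ. In controls they were 23.3, 28.5 and 20.8 CPM in delta cells, 10.9, 17.9 and 7.91 in alpha cells and 35.9, 40.9 and 70.1 in beta cells. No delta or alpha library reached the lowest beta library. The log2 fold change against control beta cells was -1.02 ± 0.34, adjusted p = 0.0386, in delta cells and -2.0 ± 0.35, adjusted p = 0.000426, in alpha cells. The delta call was lost without beta control 3, without any 1 of the delta controls, with the date as a term and without beta control 1 and delta control 3 together.

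Hyou1, which encodes a large Hsp70-like exchange factor for BiP, followed the same order. With IFNγ it read 324, 247 and 344 CPM in delta cells, 198, 369 and 268 in alpha cells and 685, 693 and 647 in beta cells. In controls it read 390.5, 447 and 389 CPM in delta cells, 324, 442 and 325 in alpha cells and 583, 654 and 841 in beta cells. Every delta and alpha library lay below every beta library. Its log2 fold change against control beta cells was -0.76 ± 0.22, adjusted p = 0.0205, in delta cells and -0.93 ± 0.22, adjusted p = 0.00597, in alpha cells. The delta call was lost without beta control 3, delta control 1 or delta control 3, with the date as a term and without beta control 1 and delta control 3 together.

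Canx encodes calnexin, a membrane lectin that holds glycoproteins during folding. It read, with IFNγ, 1019.9, 649 and 1029 CPM in delta cells, 807, 633 and 886 in alpha cells and 906, 914 and 669 in beta cells. In controls Canx read 709.6, 753 and 1359 CPM in delta cells, 568, 637 and 393 in alpha cells and 714, 936 and 1189 in beta cells. Alpha controls were lowest, below all delta and all beta controls. Canx was lower in control alpha than in control beta cells (-0.83 ± 0.28, adjusted p = 0.0478) and higher in control delta than in control alpha cells (0.82 ± 0.28, adjusted p = 0.0499), both close to the threshold. The first was lost in 11 and the second in 12 of the 18 fits that leave out 1 library. The first was also lost with the date as a term (adjusted p = 0.0946), and the second with GC offsets (0.28) and without beta control 1 and delta control 3 (0.294).

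Dnajc3 encodes p58IPK, a BiP co-chaperone whose loss causes diabetes in mice. Its IFNγ-treated levels were 448, 295 and 475 CPM in delta cells, 351, 269.9 and 381 in alpha cells and 379, 455 and 399.9 in beta cells. Its control levels were 328, 339 and 534 CPM in delta cells, 233, 238 and 224 in alpha cells and 334, 433 and 712 in beta cells. Alpha controls again lay below all other controls. Dnajc3 was lower in control alpha than in control beta cells (-1.09 ± 0.27, adjusted p = 0.00647) and higher in control delta than in control alpha cells (0.79 ± 0.26, adjusted p = 0.0427), and the first call was lost without beta control 3, the second in 9 of the 18 fits that leave out 1 library, with GC offsets (adjusted p = 0.184) and without beta control 1 and delta control 3 (0.182).

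Calr and Pdia3 encode calreticulin, the soluble relative of calnexin, and the disulfide isomerase that partners both lectins. Calr read 569, 386 and 517 CPM in delta cells, 361, 588 and 515 in alpha cells and 739.7, 709 and 441 in beta cells with IFNγ. In controls Calr read 332, 338 and 496 CPM in delta cells, 445, 521 and 259 in alpha cells and 535, 614 and 769 in beta cells. All 3 alpha and all 3 delta controls were below the lowest beta control, yet neither difference passed the threshold (alpha against beta -0.65 ± 0.28, adjusted p = 0.12; delta against beta -0.72 ± 0.28, adjusted p = 0.0817). Pdia3 read, with IFNγ, 1017, 695 and 1471 CPM in delta cells, 899, 766 and 1129.7 in alpha cells and 866, 1010.5 and 724 in beta cells. In controls Pdia3 read 814, 808 and 1511 CPM in delta cells, 633, 656 and 434 in alpha cells and 668, 828 and 1125 in beta cells. In alpha cells every IFNγ-treated library was above every control library for Pdia3, with a log2 fold change of 0.70 ± 0.30, adjusted p = 0.201. Among controls Pdia3 was highest in delta control 3, the library with the largest acinar sum, and no comparison of it passed.

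Of the other chaperones, Pdia4 (-0.84), Pdia6 (-0.92), P4hb (-0.85), Dnajb11 (-1.29) and Manf (-1.28) were lower in control alpha than in control beta cells on the log2 scale, with adjusted p from 0.00433 (Manf) to 0.0253 (Pdia4). The calls of Pdia4, Pdia6 and P4hb were lost without alpha control 3, those of Pdia4 and Pdia6 also without beta control 3, and that of Pdia4 also without alpha control 1. Pdia4, Pdia6 and P4hb encode disulfide isomerases, Dnajb11 encodes the co-chaperone ERdj3, and Manf encodes a secreted ER stress factor that beta cells need. Hsp90b1, which encodes the ER Hsp90 GRP94, was higher in control delta than in control alpha cells (1.07 ± 0.36, adjusted p = 0.0464). Delta control 3, at 2694 CPM, stood above the other control delta libraries at 1316 and 1397 CPM, and the call was lost without it and in 7 other of the 18 fits. It was also lost with GC offsets (adjusted p = 0.179) and without beta control 1 and delta control 3 (0.226). The Hsp90b1 transcript overlaps annotated genes on both strands. Creld2, an ER stress-inducible disulfide isomerase, passed in no comparison, with -0.68 ± 0.32 between alpha and beta controls. Manf overlaps 3 annotated genes, and its expected counts were fractional in 17 libraries, so part of its value is an allocation of shared reads.

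**Figure D3:**
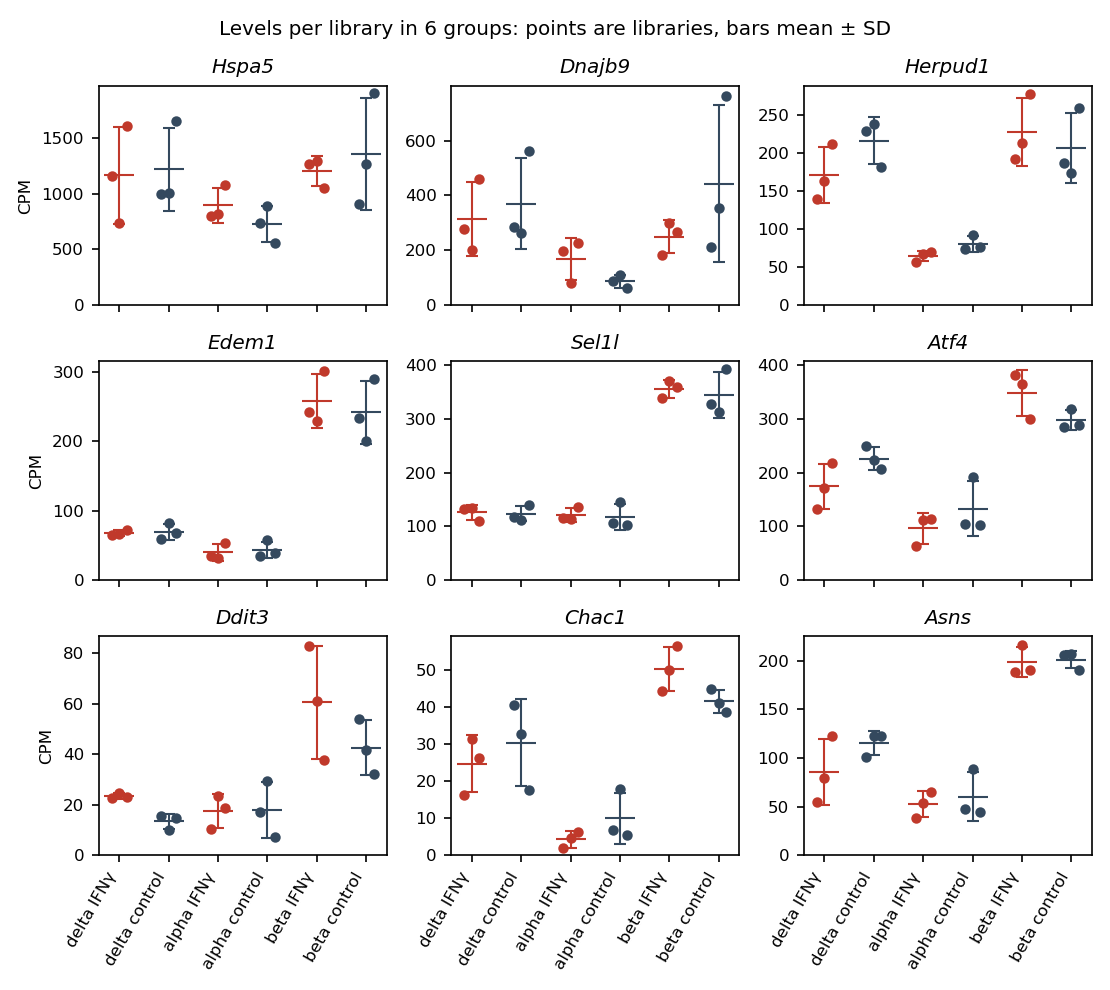
CPM (y axis, from 0) of 9 genes in the 6 groups (x axis), IFNγ-treated in red and control in dark blue; points are libraries and bars mean ± SD, n = 3. For Edem1, Sel1l, Chac1 and Asns all alpha libraries lie below all beta libraries.

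Several degradation genes separated beta cells from the other types. Edem1, a lectin that extracts misfolded glycoproteins from the folding cycle, had 65.3, 66.4 and 72.8 CPM in delta cells, 34.4, 31.8 and 53.9 in alpha cells and 242, 229.7 and 302 in beta cells with IFNγ. Its control levels were 59.1, 82.0 and 67.6 CPM in delta cells, 34.6, 57.4 and 38.5 in alpha cells and 234, 201 and 291 in beta cells. The highest delta or alpha library, at 82.0 CPM, was far below the lowest beta library at 201 CPM. Edem1 was lower than in control beta cells in delta cells (-1.80 ± 0.23, adjusted p = 1.5e-05) and in alpha cells (-2.47 ± 0.24, adjusted p = 1.11e-06), and higher in delta than in alpha cells (0.68 ± 0.23, adjusted p = 0.0467). The 2 differences from beta cells held in all 18 fits that leave out 1 library, while the third was lost in 12 of them, with the date as a term (adjusted p = 0.249), with GC offsets (0.119) and without beta control 1 and delta control 3 (0.0993).

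Sel1l, the adaptor of the HRD1 ubiquitin ligase, read 133, 135 and 111 CPM in delta cells, 115, 113 and 135 in alpha cells and 338, 371 and 359 in beta cells with IFNγ. Untreated cells had 118, 113 and 140.4 CPM in delta cells, 106, 146 and 102 in alpha cells and 328, 312 and 393 in beta cells. Delta and alpha libraries shared one range, 102 to 146 CPM, and beta libraries another, 312 to 393 CPM. The log2 fold change against control beta cells was -1.47 ± 0.18, adjusted p = 5.77e-06, in delta cells, and -1.54 ± 0.18, adjusted p = 5.88e-06, in alpha cells, and both calls held in all 18 such fits. Between delta and alpha cells it was 0.07 ± 0.17 (95% interval -0.30 to 0.44).

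Derl1 and Derl2, which encode derlins of the retrotranslocation channel, were also lower outside beta cells. Derl1 read, with IFNγ, 43.4, 50.2 and 71.0 CPM in delta cells, 41.5, 54.8 and 57.0 in alpha cells and 164, 166 and 147 in beta cells. In controls Derl1 read 71.1, 78.4 and 79.0 CPM in delta cells, 57.0, 83.5 and 62.3 in alpha cells and 157, 169 and 186 in beta cells. Every beta library was above every delta and alpha library for Derl1, and it was lower in control delta (-1.16 ± 0.20, adjusted p = 0.000245) and control alpha cells (-1.34 ± 0.20, adjusted p = 8.19e-05) than in control beta cells. Derl2 read, with IFNγ, 46.8, 46.0 and 57.5 CPM in delta cells, 68.2, 54.2 and 68.2 in alpha cells and 77.3, 92.0 and 99.4 in beta cells. In controls Derl2 read 46.7, 60.8 and 70.7 CPM in delta cells, 53.6, 58.7 and 50.7 in alpha cells and 81.6, 91.4 and 129 in beta cells. Its differences from control beta cells were smaller, -0.76 ± 0.20, adjusted p = 0.00958, in delta cells and -0.89 ± 0.20, adjusted p = 0.0035, in alpha cells. The Derl2 call in delta cells was lost without beta control 3, without delta control 1 and with the date as a term.

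Herpud1, which encodes a stress-induced scaffold of the HRD1 complex and holds both kinds of promoter element, set alpha cells apart from the other 2 types. With IFNγ it read 139.6, 163 and 212 CPM in delta cells, 57.1, 67.2 and 69.4 in alpha cells and 192, 214 and 277 in beta cells. In controls it read 229.8, 238 and 181 CPM in delta cells, 73.5, 92.3 and 75.9 in alpha cells and 187, 174 and 259 in beta cells. The highest alpha library, at 92.3 CPM, was below the lowest delta or beta library, at 139.6 CPM. Herpud1 was lower in control alpha than in control beta cells (-1.36 ± 0.21, adjusted p = 0.00013) and higher in control delta than in control alpha cells (1.43 ± 0.21, adjusted p = 7.14e-05). Between delta and beta controls the estimate was 0.07 ± 0.21 (95% interval -0.37 to 0.50). All alpha libraries with IFNγ lay below all alpha controls for Herpud1, and that difference did not pass (-0.32 ± 0.21, adjusted p = 0.357).

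Syvn1, which encodes HRD1 itself, and Derl3, the derlin of strongly secretory cells, passed in none of the comparisons. Syvn1 ranged from 24.8 to 100.1 CPM over the 18 libraries and overlaps Mrpl49 on the other strand. Derl3 ranged from 0 to 5.48 CPM. Its estimate between delta and beta controls was -2.07 ± 0.76, adjusted p = 0.063, with a 95% interval of -3.66 to -0.47.

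Of the sensors and Xbp1, Atf6 alone was called in a control comparison. Atf6 read, with IFNγ, 115, 114 and 117 CPM in delta cells, 89.1, 100.4 and 129.9 in alpha cells and 206, 219 and 185 in beta cells. In controls Atf6 read 125, 117 and 152 CPM in delta cells, 99.2, 127 and 78.9 in alpha cells and 186, 212 and 236 in beta cells. Every beta library was above every delta and alpha library. Atf6 was lower in control delta (-0.69 ± 0.19, adjusted p = 0.0139) and in control alpha cells (-1.06 ± 0.19, adjusted p = 0.000587) than in control beta cells, and the delta call was lost without beta control 3, delta control 1 or delta control 2 and with the date as a term. Xbp1 read, with IFNγ, 209, 220.4 and 238 CPM in delta cells, 245, 215 and 183 in alpha cells and 218, 265 and 276 in beta cells. In controls Xbp1 read 330.0, 321 and 249 CPM in delta cells, 219, 224 and 186 in alpha cells and 241, 276 and 334 in beta cells. All 3 delta libraries with IFNγ were below all 3 delta controls for Xbp1 (-0.43 ± 0.18, adjusted p = 0.359). Between delta and alpha controls its estimate was 0.52 ± 0.18, adjusted p = 0.0505, just outside the threshold, and no comparison of Xbp1 passed. Ern1 (236 to 379 CPM over the 18 libraries) and Eif2ak3 (60.4 to 112 CPM) passed in none either. In beta cells all 3 libraries with IFNγ were above all 3 controls for Ern1 (0.39 ± 0.16, adjusted p = 0.857).

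Among integrated stress response genes, Atf4, the factor that PERK signalling favours, read 133, 172 and 218 CPM in delta cells, 63.6, 113 and 114 in alpha cells and 381, 364 and 300.3 in beta cells with IFNγ. In controls it read 249, 224 and 206 CPM in delta cells, 104, 193 and 103 in alpha cells and 286, 319 and 288 in beta cells. Every delta and alpha library was below every beta library. Atf4 was lower in control alpha than in control beta cells (-1.16 ± 0.26, adjusted p = 0.00352) and higher in control delta than in control alpha cells (0.76 ± 0.26, adjusted p = 0.0445). The second call was lost in 11 of the 18 fits that leave out 1 library, with the date as a term (adjusted p = 0.296) and without beta control 1 and delta control 3 (0.0749). Between delta and beta controls the estimate was -0.40 ± 0.26 (adjusted p = 0.313).

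Ddit3, which encodes the pro-apoptotic factor CHOP, read 22.7, 24.7 and 23.2 CPM in delta cells, 10.4, 23.5 and 18.7 in alpha cells and 82.8, 60.9 and 37.9 in beta cells with IFNγ. Control levels were 15.6, 9.95 and 14.8 CPM in delta cells, 17.3, 29.3 and 7.05 in alpha cells and 54.0, 41.6 and 32.3 in beta cells. Every beta library was above every delta and alpha library. Ddit3 was lower than in control beta cells in delta cells (-1.66 ± 0.40, adjusted p = 0.0054) and in alpha cells (-1.26 ± 0.40, adjusted p = 0.0312). The alpha call was lost without alpha control 1 or 3 and without beta control 1 or 2, and also without beta control 1 and delta control 3 together (adjusted p = 0.109). All delta libraries with IFNγ were above all delta controls (0.80 ± 0.40, adjusted p = 0.445). Ddit3 overlaps Mars on the other strand, and whether reads were counted by strand is not stated.

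Asns, the asparagine synthetase gene and a standard ATF4 target, had, with IFNγ, 55.1, 79.7 and 122 CPM in delta cells, 38.7, 53.8 and 65.4 in alpha cells and 188, 216 and 191 in beta cells. In controls Asns read 101, 123 and 122 CPM in delta cells, 47.1, 89.0 and 44.7 in alpha cells and 206, 207 and 191 in beta cells. Every beta library was above every other library. It was lower than in control beta cells in delta cells (-0.80 ± 0.28, adjusted p = 0.0468) and in alpha cells (-1.74 ± 0.28, adjusted p = 0.000212), and higher in delta than in alpha cells (0.94 ± 0.28, adjusted p = 0.0233). The delta difference from beta cells was lost in 10 and that from alpha cells in 4 of the 18 fits that leave out 1 library. Both were lost without beta control 1 and delta control 3 (adjusted p = 0.132 and 0.0739), and the second also with the date as a term (0.0575).

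Chac1, a glutathione-degrading enzyme induced by ATF4, read 16.3, 31.3 and 26.3 CPM in delta cells, 1.90, 4.71 and 6.19 in alpha cells and 44.2, 50.02 and 56.3 in beta cells with IFNγ. Its control values were 40.6, 32.8 and 17.5 CPM in delta cells, 6.68, 17.9 and 5.45 in alpha cells and 44.7, 41.1 and 38.5 in beta cells. No alpha library reached the lowest beta library, and the alpha library with the most was alpha control 2, at 17.9 CPM. Chac1 was lower in control alpha than in control beta cells (-2.05 ± 0.42, adjusted p = 0.00178) and higher in control delta than in control alpha cells (1.60 ± 0.42, adjusted p = 0.0108). The second call was lost without delta control 1 or either of alpha controls 1 and 3, and with the date as a term (adjusted p = 0.37). Alpha control 2, the library with the highest beta marker sum among alpha libraries (12175 CPM against 3650 and 2141 in the other controls), also had the highest Atf4, Ddit3, Trib3, Asns and Ppp1r15a of the alpha controls. The part of beta cell RNA in those values was not tested.

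Trib3, a pseudokinase downstream of CHOP, was lower in control delta than in control beta cells (-2.19 ± 0.53, adjusted p = 0.00528), with 4.57 to 7.92 CPM in delta controls and 13.5 to 44.9 CPM in beta controls. The call was lost without beta control 1 and delta control 3 (adjusted p = 0.0993). Sesn2, a stress-induced brake on mTORC1, was the only gene of the 35 lower in control delta than in control alpha cells (-1.03 ± 0.34, adjusted p = 0.0391), with 30.2 to 62.02 CPM in delta controls and 96.5 to 101 CPM in alpha controls. That call was lost in 5 of the 18 fits that leave out 1 library and without beta control 1 and delta control 3 (adjusted p = 0.158). Atf3, an early stress factor, was low. With IFNγ it read 0.278, 0.764 and 5.24 CPM in delta cells, 1.64, 2.71 and 2.80 in alpha cells and 1.60, 1.19 and 1.28 in beta cells. In controls Atf3 read 1.81, 1.08 and 0.934 CPM in delta cells, 2.03, 2.01 and 3.21 in alpha cells and 0.57, 1.29 and 1.07 in beta cells. Delta IFNγ 3, at 5.24 CPM, was highest, and no comparison of Atf3 passed. Ppp1r15a and Ppp1r15b, which encode the inducible and constitutive partners of the phosphatase that reverses PERK signalling, did not pass either, at 15.03 to 59.6 and 83.7 to 139 CPM.

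Whether IFNγ changed these genes was asked in each cell type and over all 3. By edgeR, 0 of the 35 genes passed in delta cells (1.21% of all genes were higher and 0.185% lower), 0 in alpha cells (0.94% and 0.0346%), 0 in beta cells (1.06% and 0.00577%) and 0 in the effect averaged over cell types (2.23% and 0.669%). Since so few genes were called at all, 0 of 35 does not set these genes apart from the rest. DESeq2 and limma-voom also called 0. At an unadjusted p under 0.05, 3 genes passed in delta, 5 in alpha and 1 in beta cells, and 4 in the average. Of all 17338 genes tested, 2021, 3751, 738 and 2903 did so in the same order. No difference of the effect between cell types passed for the 35 genes: delta minus beta, alpha minus beta and delta minus alpha gave 0 calls each, with 0.0% of all genes called higher and 0.0% lower in each of these differences. Unadjusted, 1, 5 and 0 of the 35 genes were under 0.05, as were 822, 2305 and 783 of all 17338 genes. In alpha minus beta the 5 of the 35 were Dnajb9 (1.78 ± 0.64), Dnajc3 (0.79 ± 0.37), Trib3 (-1.80 ± 0.72), Chac1 (-1.51 ± 0.59) and Sesn2 (-1.02 ± 0.48).

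Treated and control libraries separated for few of the 35 genes. In delta cells 5 genes had all IFNγ-treated libraries below all controls (P4hb, Hyou1, Derl1, Xbp1 and Atf6; 7.8% of all genes did) and 1 above them (Ddit3; 7.71%). In alpha cells 3 were below (Herpud1, Trib3 and Sesn2; 8.93%) and 2 above (Pdia3 and Dnajc3; 9.62%). In beta cells 0 were below (4.45%) and 1 was above (Ern1; 6.49%). The 95% intervals of the IFNγ effect show what could have been missed. For Hspa5 the interval of the log2 fold change was -0.71 to 0.58 in delta cells, -0.34 to 0.94 in alpha cells and -0.81 to 0.47 in beta cells. For Ddit3 it was -0.03 to 1.64, -0.85 to 0.80 and -0.30 to 1.31 in the same order. Sel1l had narrow intervals of -0.34 to 0.39, -0.33 to 0.40 and -0.32 to 0.41. Chac1 in alpha cells had an estimate of -1.23 ± 0.44, adjusted p = 0.159, and Dnajb9 had one of 0.95 ± 0.45, adjusted p = 0.229. The result of 0 calls in alpha cells depended on the filter on low counts and on 1 library. With no filter, Dnajb9 was called higher in alpha cells (0.99, adjusted p = 0.00252) and lower in beta cells (-0.84, adjusted p = 0.0376), and Syvn1, Trib3, Chac1 and Sesn2 were called lower in alpha cells (-0.74, -1.03, -1.19 and -0.85). That fit called 3.06% of all genes higher and 1.38% lower in alpha cells, and 0.247% lower in beta cells. Without alpha IFNγ 2, Hyou1 (-0.64), Syvn1 (-1.22) and Sesn2 (-1.34) were called lower, where 10.9% of all genes were, so these 3 of 35 are no more than the share over all genes. In delta cells the delta marker sum also moved with treatment, at 11228, 15321 and 16751 CPM in IFNγ-treated and 37724, 36592 and 16952 CPM in control libraries, and its part in the estimates was not tested. The GC tilt of the delta libraries moved with treatment too, at 0.804, 0.433 and 0.854 in IFNγ-treated and -0.102, -0.0582 and 0.858 in control libraries.

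**Figure D4:**
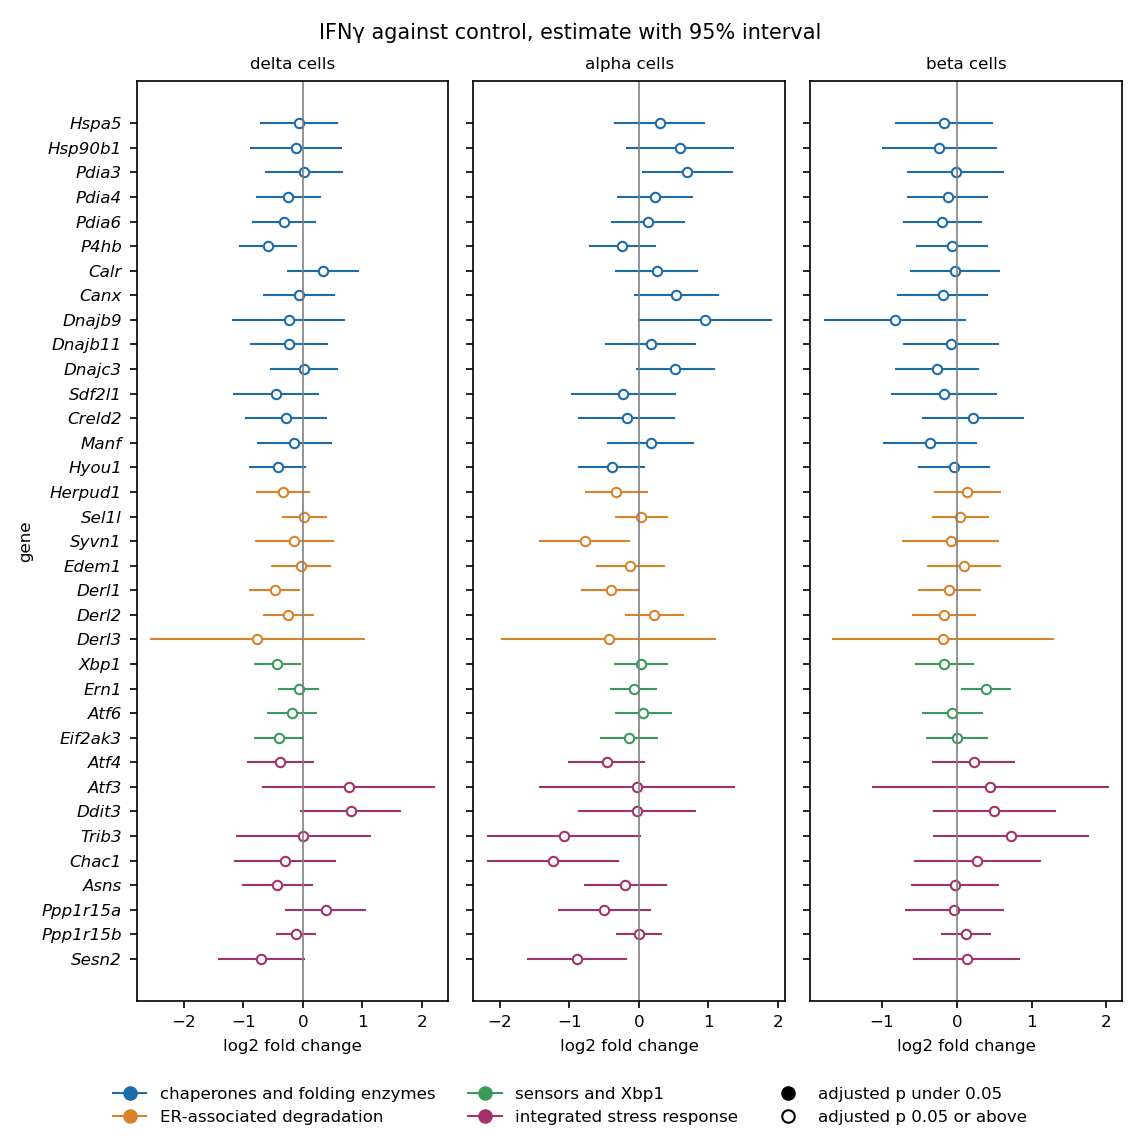
Log2 fold change of IFNγ-treated against control cells (x axis) for each gene (y axis) in delta, alpha and beta cells; bars are 95% intervals of the edgeR fit, n = 3 libraries a group, and open points did not pass the threshold. All 105 points are open, and the widest bars belong to Derl3 and Atf3.

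In alpha cells the estimates followed the base composition of the genes. All 9 integrated stress response genes had negative estimates (median -0.46) and 11 of the 15 chaperones positive ones (median 0.23), where the median of all genes was -0.01. Across the 35 genes, which are not independent replicates, the alpha estimate correlated with the GC content of the longest transcript (Pearson r = -0.846, Spearman rho = -0.846, n = 35 genes measured in the same 6 libraries). The same correlation was -0.287 in delta and 0.455 in beta cells. The GC tilt was 1.00 and 0.855 in alpha IFNγ 1 and 3 but -0.564 in alpha IFNγ 2, against -0.475, -0.712 and -0.755 in the alpha controls. With an offset for GC content the correlation was -0.292, the median of the integrated stress response genes was -0.20 and that of the chaperones 0.15. On the date shared by alpha IFNγ 2 and alpha control 1, whose tilts were close, 26 of the 35 genes were higher with IFNγ (median log2 difference 0.12) and the integrated stress response genes had a median of 0.12. On the date shared by alpha IFNγ 3 and alpha control 2, 13 of 35 were higher, with a median of -0.75 for the integrated stress response genes and a correlation with GC content of -0.828. In beta cells, on the 2 dates that held both treatments, 27 and 28 of the 35 genes were higher with IFNγ, with medians of 0.17 and 0.11. In the fit over all libraries 13 of 35 were positive. That fit also holds beta IFNγ 3 and beta control 3, which share no date. Its median over the 35 genes was -0.04. Leaving out 1 library, that median ranged from -0.16 (without beta control 1) to 0.15 (without beta control 3). The part of the dates themselves was not tested. For the date pairs of alpha and beta cells no share over all genes was taken. Delta cells had no date with both treatments.

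**Figure D5:**
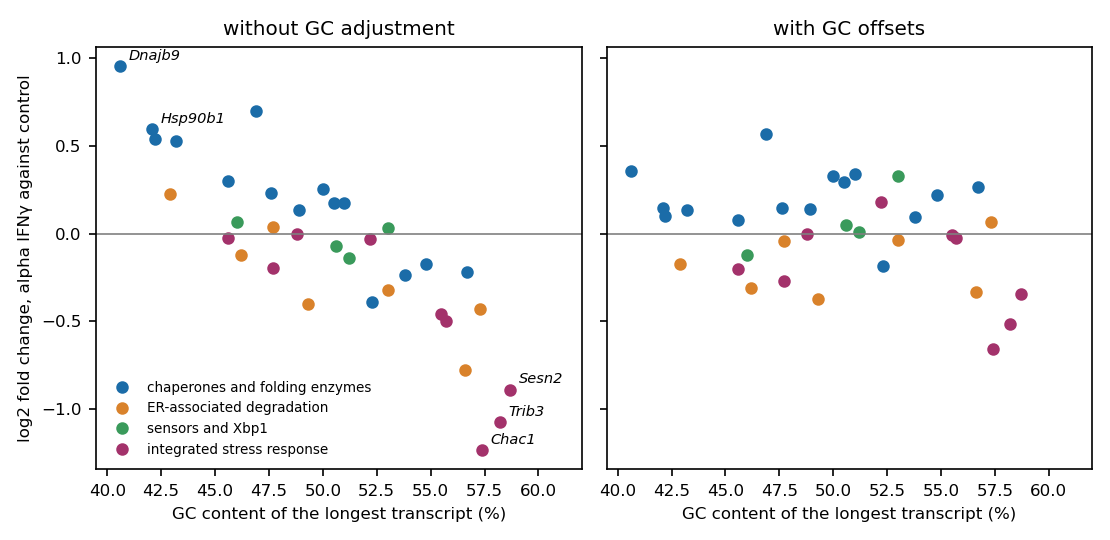
Log2 fold change of IFNγ-treated against control alpha cells (y axis) against the GC content of each gene's longest transcript in % (x axis), coloured by role, in the fit as reported (left) and with GC offsets (right). On the left Dnajb9 is at the top and Chac1, Trib3 and Sesn2 at the bottom (r = -0.846); on the right the slope is flatter (r = -0.292).

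The IFNγ-treated libraries were also compared between cell types, by whether the groups overlapped. They enter none of the control means but share the estimate of the spread with the control comparisons. The GC tilt also differed between these groups. It was 0.804, 0.433 and 0.854 in IFNγ-treated delta libraries and 1.00, -0.564 and 0.855 in IFNγ-treated alpha libraries. In IFNγ-treated beta libraries it was -0.677, -0.373 and -0.405. The part of the tilt in the counts below was not tested. All 3 IFNγ-treated delta libraries were below all 3 IFNγ-treated beta libraries for 23 of the 35 genes (25.2% of all genes) and above them for 0 (24.8%), and the 23 included all 10 genes lower in delta controls. All 3 alpha libraries were below all 3 beta libraries for 25 genes (19.9%) and above them for 1, Atf3 (19.6%). The 25 included 17 of the 21 genes lower in alpha controls, while Hspa5, Canx, Dnajb9 and Dnajc3 overlapped. Delta libraries were above alpha libraries for 5 genes, Herpud1, Edem1, Atf4, Chac1 and Ppp1r15b (13.7% of all genes), and below them for 0 (12.3%). These 5 included 4 of the 9 genes higher in delta controls.

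Beyond the 35 genes, 101 further genes of the same pathways were read, of which 97 were tested. With IFNγ, Eif2ak2 was the only one called in every cell type. It encodes PKR, an interferon-induced kinase of the integrated stress response that senses double-stranded RNA, and read 138, 125 and 122 CPM in IFNγ-treated and 35.9, 37.1 and 77.8 CPM in control delta cells, 134, 101 and 143 CPM in IFNγ-treated and 53.8, 36.3 and 43.7 CPM in control alpha cells, and 97.0, 102 and 75.9 CPM in IFNγ-treated and 35.9, 40.9 and 41.5 CPM in control beta cells. Within each cell type every treated library was above every control. Eif2ak2 rose by 1.35 ± 0.25, adjusted p = 0.00468, in delta cells, 1.5 ± 0.25, adjusted p = 0.00216, in alpha cells and 1.21 ± 0.25, adjusted p = 0.0158, in beta cells (log2). Wars, the tryptophanyl-tRNA synthetase gene and both an ATF4 and an interferon target, rose in beta cells to 498, 609.8 and 615 CPM, against 188, 176 and 151 CPM in controls (1.74 ± 0.25, adjusted p = 0.00029), and in the average (1.14 ± 0.14, adjusted p = 3.08e-05). Wars passed the threshold in neither delta nor alpha cells, where the largest estimates of its list, the ATF4 and CHOP targets, were 0.98 and 0.69. Creb3, an ER-anchored factor, rose in beta cells (0.82 ± 0.19, adjusted p = 0.0458) and in the average (0.45 ± 0.11). Its estimate was 0.60 ± 0.19, adjusted p = 0.201, in delta cells and -0.06 ± 0.19, adjusted p = 0.884, in alpha cells. No difference of the IFNγ effect between cell types was called for any gene tested. Fkbp11, an ER prolyl isomerase, fell in the average alone (-1.06 ± 0.27, adjusted p = 0.0395), at 1.21 to 8.74 CPM in treated and 2.91 to 16.9 CPM in control libraries.

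In control alpha against beta cells 35 of the 97 further genes were lower and 3 higher (10.1% and 9.56% of all genes), in delta against beta cells 16 were lower and 4 higher (9.11% and 11.4%), and in delta against alpha cells 18 were higher and 4 lower (10.9% and 8.77%). The lists differed: of 32 further folding genes tested, 4 were lower and 3 higher in delta than in beta cells (median -0.02), and of 16 further signalling genes 2 were lower and 2 higher in alpha than in beta cells (median -0.20). Ero1lb, the beta cell oxidase that recharges disulfide isomerases, was lower in control delta (-4.97 ± 0.43, adjusted p = 1.08e-07) and control alpha cells (-2.69 ± 0.39, adjusted p = 5.94e-05) than in control beta cells. It read 30.5, 31.1 and 53.9 CPM in delta, 148, 270.3 and 143 CPM in alpha and 693, 866 and 2076 CPM in beta controls. Wfs1, the Wolfram syndrome gene whose product resides in the ER, was lower in control alpha than in control beta cells (-1.95 ± 0.32, adjusted p = 0.000232), as was Creb3l1 (-2.84 ± 0.35, adjusted p = 1.39e-05), which encodes another ER-anchored factor. Of 28 further ATF4 and CHOP targets tested, 19 were lower in alpha than in beta cells, with Atf5 (-2.92 ± 0.58), Nupr1 (-2.74 ± 0.78), Vldlr (-2.56 ± 0.34) and Slc7a11 (-2.39 ± 0.69) at the largest differences, and 9 were lower in delta than in beta cells, Atf5 among them (-2.58 ± 0.57). Of 21 further degradation genes, 6 were lower in alpha than in beta cells, the largest differences being those of Selenos (-1.02 ± 0.27), Ube2j1 (-0.97 ± 0.24), Edem3 (-0.85 ± 0.24) and Edem2 (-0.84 ± 0.22). Among folding genes higher outside beta cells, Prdx4, a peroxiredoxin of the ER, was higher in control delta than in control beta cells (1.58 ± 0.35, adjusted p = 0.00287). Pdia2, the pancreatic disulfide isomerase, read 3.44, 3.14 and 8.41 CPM in delta, 0.291, 0 and 0 CPM in alpha and 7.12, 0.351 and 0 CPM in beta controls, and its highest value in each of delta and beta controls was in the library with the largest acinar sum of that type.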

How the data were processed

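Sorted delta, alpha and beta cells of C57BL/6 mouse islets, IFNγ-treated or control, gave 18 libraries. The authors prepared strand-marking, rRNA-depleted libraries and made gene values with RSEM after STAR 2.5.2b alignment (GRCm38). The deposited files hold RSEM expected counts and TPM, the second scaled by the authors for transcript length and library size, and FPKM that were not used. The strand setting of the counting and the RSEM version are not given in the sources used here. Expected counts were rounded to whole numbers, genes were filtered with filterByExpr (minimum count 10), scaled by TMM and tested with edgeR 4.0.16 (R 4.3.3), as quasi-likelihood F-tests on 1 mean per group over all 18 libraries, with Benjamini-Hochberg adjustment over 17338 genes and a threshold of 0.05. The fit was tested on simulated data. Alternatives used DESeq2 1.42.0, limma 3.58.1 (voom), other scaling, no filter, the replicate number as a block, the date in the library names, offsets for GC content, and fewer libraries. The study fitted a batch in DESeq2 that the labels do not give, so dates stood in for it as an alternative.

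Of the gene IDs, 99.53% matched GENCODE M21 names. Ddit3 has a second annotated locus with at most 0.85 counts, which was not used. Depth ranged from 6128845 to 11531734 expected counts, and p-values measure the spread between 3 libraries a group. The members and all lists were chosen with earlier results of these data known. Values in every library are given for 8 fixed genes (Hspa5, Herpud1, Xbp1, Atf4, Atf3, Ddit3, Calr and Pdia3) and for genes past the threshold with an IFNγ effect or in both control comparisons of one cell type with the same sign; further pathway genes are named if called with IFNγ or among the 4 largest changes of a list. Other values named in the text (Ern1, Trib3, Sesn2, Hsp90b1 and the like) were chosen after they were seen.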

Additional observations from a re-analysis of the deposited data

How the results depend on the processing

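No called gene changed sign under any alternative, but medians of groups of genes did. Leaving out 1 library, the median in beta cells with IFNγ ranged from -0.35 to 0.13 for chaperones (highest without beta control 3) and from -0.16 to 0.15 for all 35 genes, that of degradation genes in alpha cells with IFNγ from -0.39 to 0.13 and that of the integrated stress response in delta against alpha controls from -0.65 to 0.16 (both highest without alpha control 2). Counts of genes called with IFNγ were 0 under DESeq2, limma-voom, RLE size factors, the replicate block, the date term, GC offsets and without beta control 1 and delta control 3. With no filter on low counts, 1 gene was higher and 4 were lower in alpha cells, 1 was lower in beta cells, 1 was lower in the average, and in alpha minus beta 1 was higher and 2 were lower; that fit tested 32335 genes and called 3.06% higher and 1.38% lower in alpha cells, 0.247% lower in beta cells, 1.42% lower in the average, and 1.26% higher and 0.405% lower in alpha minus beta. The cause was not tested. Leaving out 1 library at a time gave 0 to 3 lower in alpha cells, 0 to 1 lower in the average, and 0 to 1 higher and 0 to 1 lower in alpha minus beta, where all values above 0 came from the fits without alpha IFNγ 2 or, for the average, also without delta IFNγ 3 (Derl1). Without alpha IFNγ 2, 10.9% of all genes were lower in alpha cells, 5.04% lower in the average, and 3.74% higher and 3.89% lower in alpha minus beta.

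Between control cell types, leaving out 1 library gave 15 to 22 genes lower in alpha than in beta cells (21 as reported), 5 to 11 lower in delta than in beta cells (10 as reported; 5 without beta control 3 and 6 without delta control 1), 2 to 12 higher in delta than in alpha cells (9 as reported; 2 without alpha control 1 or 3, and 4 without delta control 3) and 0 to 2 lower. The date term gave 2 higher in delta than in beta and 2 lower in delta than in alpha cells. With no filter, 14 were higher and 3 lower in delta than in alpha cells, and without beta control 1 and delta control 3, 4 were higher and 0 lower. GC offsets gave 7 higher. With the replicate block, 19 were lower in alpha and 12 in delta than in beta cells, and 8 were higher and 1 lower in delta than in alpha cells, the calls of Hspa5 (alpha against beta), Canx (alpha against beta, delta against alpha) and Hsp90b1 (delta against alpha) passing the threshold no longer; same-numbered libraries did not deviate together (mean r = 0.0216 over 45 pairs, against 0.177 over 18 pairs of one date), so they share only a number. Counts between control cell types in this paragraph also stand without the share over all genes in the same fit, and show only how the calls moved. Residual degrees of freedom with dates were only 4. Derl3 and Atf3, at a few CPM, are limited by depth.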
